A study of Mus musculus with 16 samples.

Results

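The 38 Hox genes described here are mouse homeobox genes of the Hoxa, Hoxb, Hoxc and Hoxd clusters. They were chosen by name, though with earlier results of these data known. They are 38 of the 21627 protein-coding genes that the RefSeq table used places on an autosome or on X, and each of the 38 was found there by its symbol. There are 10 members in Hoxa (chromosome 6), 10 in Hoxb (chromosome 11), 9 in Hoxc (chromosome 15) and 9 in Hoxd (chromosome 2). H3K27me3, the trimethyl mark that Polycomb repressive complex PRC2 places on lysine of histone H3 through its enzyme EZH2, was mapped by chromatin immunoprecipitation and sequencing. The cells were B cells from the spleens of 6 to 8 week old C57BL/6 mice, purified magnetically with CD43 beads. They were either wild type (WT) or carried the Ifih1/Rigi/cGAS triple mutant genotype, which affects cytosolic sensors of foreign nucleic acid, and the labels do not give the alleles. Cells of each genotype were cultured for 48 hours with BAFF and IL-4 at 2 ng/mL each, in DMSO or in 1 µM GSK343, an inhibitor of EZH2. Each of the 4 combinations has 2 ChIP and 2 input samples but is represented by a single deposited list of broad peaks, and the names of the mutant peaks leave unsettled whether both mutant replicates are in them. The values below therefore have no replicate error, no test between lists was possible, and every difference is between lists.

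Hox genes encode transcription factors that give cells along the body axis their positional identity. A cluster holds them in a fixed order, so that genes of the same paralogue number in different clusters descend from one ancestral gene and lie at like positions. Low numbers act towards the head, high numbers towards the tail and in the limbs. Polycomb complexes keep the clusters silent where they are not used, and in blood a subset of Hox genes, chiefly of the Hoxa and Hoxb clusters, is active in stem and progenitor cells and is shut off as cells mature.

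The measure used is the covered share, the percentage of the bases of a gene body (its RefSeq start to end on GRCm38) that lie in a peak. Under DMSO most Hox genes were marked over their whole length. In WT cells a peak touched 38 of 38 Hox genes, against 31.8% of all protein-coding genes, and 33 were covered over 100% of their length, against 2.64%. In mutant cells a peak again touched 38, against 34.6%, and 34 were covered in full, against 3.70%. Under GSK343 most Hox genes still carried peaks, but with gaps that were not spread evenly over the paralogue numbers. A WT GSK343 peak touched 37 Hox genes, against 21.4% of all genes, and 18 were covered in full, against 0.855%. A mutant GSK343 peak touched 36, against 20.3%, and 12 were covered in full, against 0.615%.

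Counting genes with at least 50% of their body in a peak gave 36 Hox genes under DMSO (6.67% of all protein-coding genes) and 32 under GSK343 (2.76%) in WT cells, and 38 (9.37%) and 30 (2.47%) in mutant cells. Most Hox genes are short, and among the 13900 coding genes within their range of lengths the shares were 8.81%, 3.74%, 12.0% and 3.33% in the same order. Of those genes, a peak touched 28.6%, 18.7%, 31.2% and 17.3%, and covered in full 3.30%, 1.04%, 4.58% and 0.705%. The range runs from 1.78 kb (Hoxc12) to 44.0 kb (Hoxa3), and within it the genes were not matched in length. Of the Hox genes past this level under DMSO, 32 of 36 were still past it under GSK343 in WT cells and 30 of 38 in mutant cells. Among all coding genes past it under DMSO, 41.3% in WT and 25.9% in mutant cells were still past it. The median GSK343 minus DMSO difference over the 38 genes was −0.92 percentage points in WT and −18.99 in mutant cells, and the mean differences were −14.1 and −25.6. Over the 6868 coding genes that a WT DMSO peak touched, the median difference was −7.44 points, and over the 7477 touched in mutant DMSO it was −12.98. Those genes started from lower covered shares, with medians of 12.4% and 17.8%. Over the coding genes covered by at least 50% under DMSO, which are closer to the Hox genes in starting share, the medians were −36.98 points in WT (1442 genes) and −52.97 in mutant cells (2026 genes). No Hox gene had a higher covered share under GSK343 than under DMSO in either genotype. For most of them this was fixed by the measure. The 33 genes in WT and 34 in mutant cells that were covered in full under DMSO could not rise. In WT cells 20 were lower and 18 equal, and in mutant cells 26 were lower and 12 equal.

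**Figure D1:**
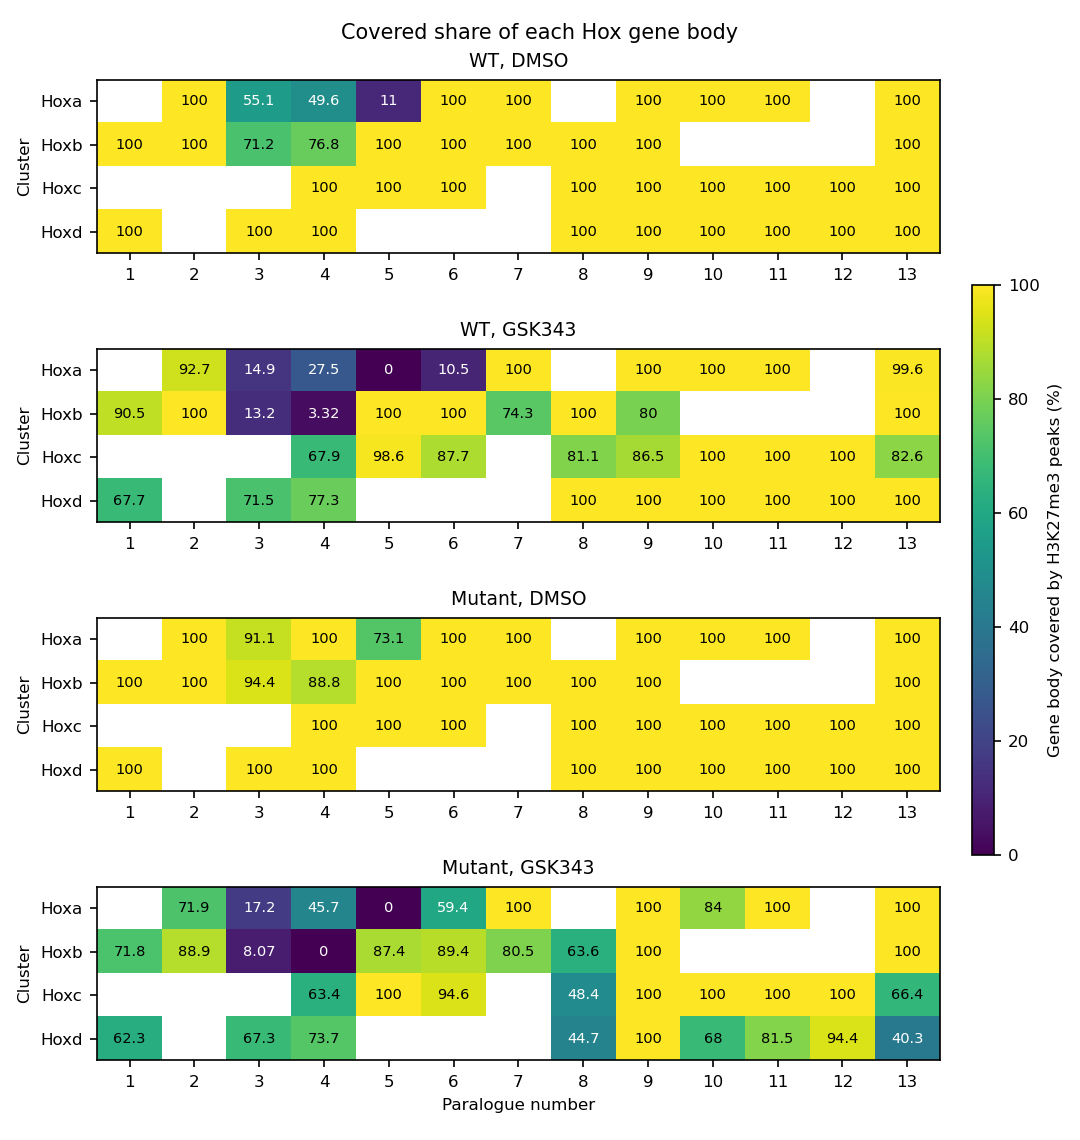
Covered share of each Hox gene body (colour and number, in percent) by paralogue number (horizontal) and cluster (vertical), 1 panel for each of the 4 peak lists. White cells hold no gene or 1 not analysed here. Hoxa3 to Hoxa5, Hoxb3 and Hoxb4 lie below 50% in both GSK343 panels, Hoxa6 (10.5%) in the WT one alone and Hoxc8, Hoxd8 and Hoxd13 (48.4%, 44.7% and 40.3%) in the mutant one alone.

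The labelled cell type was set against marker genes through the absence of the repressive mark. Peaks touched 0 of 7 B cell genes (Ms4a1, Cd79a, Cd79b, Pax5, Ebf1, Cd22 and Blnk) in each of the 4 lists. Under DMSO they touched 4 of 6 T cell genes and 4 of 6 myeloid genes in both genotypes. Of all coding genes, peaks touched 31.8% in WT and 34.6% in mutant DMSO, and 21.4% and 20.3% under GSK343. With so few markers these counts are only a loose comparison. In WT DMSO 3 of the T cell genes (Cd3e, Cd3g and Gata3) and 1 of the myeloid genes (Cebpa) were covered by at least 50%, against 6.67% of all coding genes. Cd8a, Cd28, Csf1r and Itgam had no peak in any list. The absence of a peak does not by itself show that a gene is active.

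By paralogue class, the shares under GSK343 were lowest in groups 1 to 4 and highest in groups 9 to 13. The 11 genes of groups 1 to 4 had a mean covered share of 86.6% under DMSO and 56.9% under GSK343 in WT cells, and of 97.7% and 51.8% in mutant cells. The 11 genes of groups 5 to 8 had 91.9% and 77.5% in WT and 97.6% and 69.8% in mutant cells. The 16 genes of groups 9 to 13 were covered over 100% under DMSO in both genotypes, and over 96.8% on average in WT GSK343 and 89.7% in mutant GSK343. At least 50% of the body was covered under GSK343 in 7 of 11, 9 of 11 and 16 of 16 genes in WT cells, and in 7, 8 and 15 in mutant cells. Over the 38 genes, covered share and paralogue number had a Pearson r of 0.483 and a Spearman rho of 0.576 in WT GSK343, and of 0.420 and 0.463 in mutant GSK343. Under DMSO the rho was already 0.376 in WT and 0.336 in mutant cells. Covered share and gene length had an r of −0.410 and a rho of −0.217 in WT GSK343, and of −0.405 and −0.227 in mutant GSK343. These are descriptions only, since neighbouring genes share peaks.

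The relation was not the same in each cluster. Spearman's rho in WT GSK343 was 0.619 over the 10 Hoxa genes, 0.226 over the 10 Hoxb genes, 0.441 over the 9 Hoxc genes and 0.842 over the 9 Hoxd genes. In mutant GSK343 it was 0.744, 0.523, 0.292 and 0.150. As deposited, the Hoxd relation of the WT list was thus far weaker in the mutant list, where most high-numbered Hoxd genes were partly uncovered. Both the WT relation and this difference rested on short gaps. With peaks less than 3 kb apart joined, Hoxd1, Hoxd3 and Hoxd4 reached 100% in WT GSK343, which left no Hoxd gene below it. In mutant GSK343 Hoxd3, Hoxd4, Hoxd8 and Hoxd10 to Hoxd13 reached 100%. Hoxd1 stayed at 62.3% there, the only Hoxd gene left below 100%. The order of paralogue groups was also not a steady climb: groups 1 and 2 lay above groups 3 and 4. Mean shares in WT GSK343 were 79.1% for group 1, 96.3% for group 2, 33.2% for group 3 and 44.0% for group 4. In mutant GSK343 they were 67.1%, 80.4%, 30.9% and 45.7%. Without Hoxa3, Hoxb3 and Hoxd3, the gene bodies over 30 kb, rho was 0.526 in WT and 0.403 in mutant GSK343 over 35 genes. With gene length in place of paralogue number it was −0.0574 and −0.0893. Within Hoxa, Hoxb, Hoxc and Hoxd the rho with gene length was 0.181, −0.317, −0.695 and 0.0099 in WT GSK343. The mutant GSK343 values were 0, −0.310, −0.566 and −0.1. In Hoxc the relation with gene length was thus the stronger one in both lists.

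**Figure D2:**
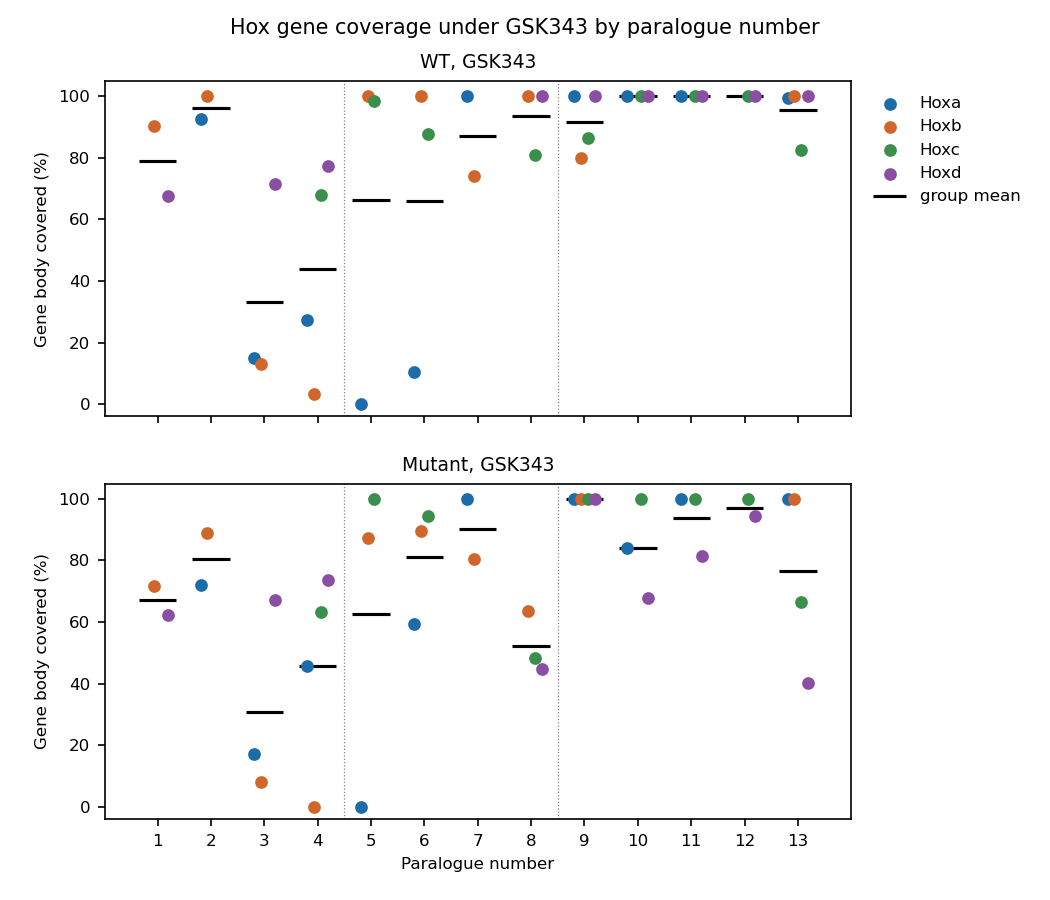
Covered share of each Hox gene body under GSK343 (vertical, percent) by paralogue number (horizontal), WT above and mutant below, coloured by cluster; black bars are group means and dotted lines part groups 1 to 4, 5 to 8 and 9 to 13. Group 3 has the lowest mean in both panels, at 33.2% and 30.9%, and groups 2 and 8 to 13 have means of 91.6% or more in WT cells.

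Most start sites with a promoter window were covered in full, which leaves little room for a relation with paralogue number. The RefSeq promoter table gave a window of 250 bases before to 50 after the start for 22 of the 38 genes. Most of these are Hoxa and Hoxd genes: of Hoxb only Hoxb1, Hoxb4 and Hoxb8 had a window, and of Hoxc only Hoxc4. The like share over all coding promoter windows is not given here, so the counts below have no background beside them. Under DMSO 22 of 22 windows were covered in full in both genotypes. Under GSK343 20 were covered in full in WT cells and 17 in mutant cells. Over these 22 genes, rho between paralogue number and covered share in WT GSK343 was 0.701 for gene bodies and −0.173 for promoter windows. In mutant GSK343 it was 0.431 and 0.0799. The promoter values rest on the few windows short of 100% and neither show nor deny a relation. The WT windows short of full cover were those of Hoxa5, at 0%, and of Hoxa13, at 13.7%. In mutant cells the windows of Hoxa5, Hoxb4, Hoxb8 and Hoxd11 had no peak and that of Hoxd3 was covered over 59.3%.

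The windows of the genes with the lowest and the highest covered share under GSK343 are printed to show the DNA at these starts. Hoxa5 and Hoxb4 had the lowest mean over both GSK343 lists. At the top 8 genes tied at 100%, of which Hoxa7, Hoxa9 and Hoxa11 lay under the WT GSK343 peak of highest fold among those genes (3.64) and are shown. The sequences are RefSeq's on GRCm38, written 5′ to 3′ on the strand of the gene, and capitals mark every CG dinucleotide, the site of DNA methylation that is dense in CpG islands.
Hoxa5 (chr6:52204538-52204837, minus strand): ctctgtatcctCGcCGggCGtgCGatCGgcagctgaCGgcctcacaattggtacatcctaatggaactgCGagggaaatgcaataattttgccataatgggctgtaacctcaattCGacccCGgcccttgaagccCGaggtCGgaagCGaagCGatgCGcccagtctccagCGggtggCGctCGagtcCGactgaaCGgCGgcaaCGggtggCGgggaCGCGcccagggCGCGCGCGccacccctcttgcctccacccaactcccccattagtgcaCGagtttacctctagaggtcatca
Hoxb4 (chr11:96318017-96318316, plus strand): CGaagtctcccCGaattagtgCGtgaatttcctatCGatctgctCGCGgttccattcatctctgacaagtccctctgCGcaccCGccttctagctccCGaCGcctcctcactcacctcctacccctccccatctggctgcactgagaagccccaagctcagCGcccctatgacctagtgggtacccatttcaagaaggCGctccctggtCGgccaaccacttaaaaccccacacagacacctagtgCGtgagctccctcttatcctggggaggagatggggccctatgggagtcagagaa
Hoxa7 (chr6:52218524-52218823, minus strand): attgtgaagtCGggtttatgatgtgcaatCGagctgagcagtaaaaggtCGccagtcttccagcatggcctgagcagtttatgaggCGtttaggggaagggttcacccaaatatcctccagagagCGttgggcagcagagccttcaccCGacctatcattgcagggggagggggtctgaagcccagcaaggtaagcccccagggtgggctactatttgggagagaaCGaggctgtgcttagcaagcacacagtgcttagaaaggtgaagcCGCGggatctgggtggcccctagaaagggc
Hoxa9 (chr6:52227321-52227620, minus strand): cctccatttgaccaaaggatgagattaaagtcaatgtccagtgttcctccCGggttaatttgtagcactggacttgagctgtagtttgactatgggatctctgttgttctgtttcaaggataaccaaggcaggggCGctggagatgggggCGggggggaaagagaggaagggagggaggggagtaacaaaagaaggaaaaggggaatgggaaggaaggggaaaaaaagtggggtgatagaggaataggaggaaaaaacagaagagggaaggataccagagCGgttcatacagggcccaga
Hoxa11 (chr6:52245761-52246060, minus strand): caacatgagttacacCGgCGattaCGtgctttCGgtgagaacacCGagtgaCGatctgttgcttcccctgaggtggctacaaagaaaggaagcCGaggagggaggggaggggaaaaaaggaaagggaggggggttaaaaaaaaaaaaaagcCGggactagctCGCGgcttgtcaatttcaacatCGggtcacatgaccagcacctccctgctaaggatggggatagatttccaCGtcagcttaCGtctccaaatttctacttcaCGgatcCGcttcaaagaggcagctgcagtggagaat

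Hoxa5 had 29 CG dinucleotides in its window and Hoxb4 14, whereas Hoxa7 had 9, Hoxa9 4 and Hoxa11 15. The start richest in CG among the 5 was thus the one without a peak in both GSK343 lists, but the 5 were picked by covered share. Hoxd1, also with 29, and Hoxd13, with 37, had windows covered in full in both GSK343 lists. Hoxa13, with 45, had 13.7% in WT and 100% in mutant GSK343. Hoxd11, with 4, had 100% in WT and no peak in mutant GSK343. Over the 22 genes the CG count ran from 4 in Hoxd4, Hoxa9 and Hoxd11 to 45 in Hoxa13, with a median of 13.5, close to the median of 14 over 17273 coding genes with a window. The motif CGCG, which reads the same on both strands, was present in 13 of the 22 windows (59.1%) and in 49.99% of all. Across the 22 genes CG count and covered share of the body had a rho of −0.307 in WT GSK343 and −0.313 in mutant GSK343. With so few genes these weak values are given only as a description.

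Paralogue groups 1 and 2 hold the genes at the head end of the clusters. From here on, 4 shares given in a row are those of WT cells under DMSO and GSK343, then of mutant cells under DMSO and GSK343. Hoxb1, which sets the identity of a hindbrain segment, was covered over 100%, 90.5%, 100% and 71.8%. Hoxd1 was covered over 100%, 67.7%, 100% and 62.3%. Both starts stayed under a peak in all 4 lists. Hoxa2, a selector gene of the second pharyngeal arch, had 100%, 92.7%, 100% and 71.9%. Hoxb2, its hindbrain partner, had 100%, 100%, 100% and 88.9%. The mutant GSK343 list was the lower of the GSK343 pair for each of the 4 genes.

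Group 3 had the longest gene bodies and, under GSK343, the lowest mean shares. RefSeq extends Hoxa3, needed for the thymus and parathyroid, over 44.0 kb that include the whole of Hoxa4, Hoxa5 and Hoxa6. Its covered share was 55.1%, 14.9%, 91.1% and 17.2%. Hoxb3 spans 40.8 kb with Hoxb4 inside it, and had 71.2%, 13.2%, 94.4% and 8.07%. Hoxd3 spans 36.3 kb with Hoxd4 inside it, and differed from both: it had 100%, 71.5%, 100% and 67.3%. On the bases that no other Hox gene shares, the GSK343 shares were 15.8% and 12.4% for Hoxa3, 14.1% and 8.80% for Hoxb3, and 70.0% and 65.7% for Hoxd3, in WT and mutant cells. The low values of Hoxa3 and Hoxb3 were thus as low outside the shorter genes within them. The Hoxa3 start, by contrast, lay under a peak over its full window in all 4 lists.

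Group 4 has a member in each cluster, and these were split between clusters. Hoxa4 (chromosome 6, 52189682 to 52191703) was covered over 49.6%, 27.5%, 100% and 45.7%. Hoxb4 (chromosome 11, 96318267 to 96321638), known for expanding blood stem cells when overexpressed, was covered over 76.8%, 3.32%, 88.8% and 0%. In WT GSK343 the remaining peak reached only the start of Hoxb4, where it covered the whole promoter window. Hoxc4, reported to drive the gene of the mutator enzyme AID in activated B cells, was covered over 100%, 67.9%, 100% and 63.4%. Hoxd4, a regulator of the upper neck vertebrae, had 100%, 77.3%, 100% and 73.7%. As deposited, the Hoxc and Hoxd members thus lay above 60% in all lists while the Hoxa and Hoxb members lay below 50% in both GSK343 lists. In WT GSK343 a q-value of at most 0.01 lowered the share to 27.3% for Hoxc4 and 36.5% for Hoxd4, while a fold of at least 3 gave 27.3% for Hoxc4 and left Hoxd4 at 77.3%.

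Group 5 repeated the split, now between Hoxa and the rest. Hoxa5 (chromosome 6, 52201754 to 52204587), needed for lung and for cervical vertebrae, was the least covered Hox gene. A peak covered 11.01% of it in WT DMSO, 73.1% in mutant DMSO and 0% in both GSK343 lists. Its promoter window was covered in full in both DMSO lists, although gaps in the WT DMSO peaks took up most of the gene body. Hoxb5, expressed in long-term blood stem cells, was covered over 100%, 100%, 100% and 87.4%. Hoxc5 had 100%, 98.6%, 100% and 100%. Genes of 1 paralogue number therefore stood at both ends of the range under the same treatment.

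Groups 6, 7 and 8 act in the thoracic part of the axis. Hoxa6 was covered over 100% in both DMSO lists, 10.5% in WT GSK343 and 59.4% in mutant GSK343. Its WT minus mutant difference of −48.9 points under GSK343 was the lowest of the 38, followed by Hoxb9 at −20.03 and Hoxa4 at −18.2. Hoxb6 and Hoxc6 had 100% and 87.7% in WT GSK343 and 89.4% and 94.6% in mutant GSK343. Hoxa7 was covered in full in all 4 lists, and Hoxb7 had 74.3% in WT and 80.5% in mutant GSK343. The group 8 genes were lower in mutant than in WT GSK343, by gaps under 3 kb that vanish when such peaks are joined. Hoxb8, which can immortalise myeloid progenitors, had 100% in WT GSK343 and 63.6% in mutant GSK343. Hoxc8 had 81.1% and 48.4%, and Hoxd8 100% and 44.7%. All of the group 8 genes were covered in full under DMSO in both genotypes.

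Groups 9 to 13 pattern the lumbar and tail regions and the limbs, and include Hoxa9 and Hoxa10, which are active in blood progenitors and in leukaemia. In WT GSK343 12 of these 16 genes were covered in full. The exceptions were Hoxb9 at 79.97%, Hoxc9 at 86.5%, Hoxa13 at 99.6% and Hoxc13 at 82.6%. In mutant GSK343 10 were covered in full, among them the whole of group 9 (Hoxa9, Hoxb9, Hoxc9 and Hoxd9), Hoxc10, Hoxa11, Hoxc11, Hoxc12, Hoxa13 and Hoxb13. The others were Hoxa10 at 84.0%, Hoxd10 at 68.0%, Hoxd11 at 81.5%, Hoxd12 at 94.4%, Hoxc13 at 66.4% and Hoxd13 at 40.3%. Hoxd13, which shapes the digits, was the lowest of the class: its share was 100% in the other 3 lists. Hoxd10 and Hoxd11 share 2744 bp and so are not separate values.

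Long gaps over genes lay in Hoxa and Hoxb, around groups 3 and 4 in both and also over Hoxa5 and Hoxa6, whose Hoxb partners were covered. In WT GSK343 the longest stretch of Hoxa without a peak was 25.1 kb (chromosome 6, 52166018 to 52191147), over part of Hoxa3 and most of Hoxa4. A second one of 15.4 kb (52192901 to 52208270) held Hoxa5 whole and most of Hoxa6. In mutant GSK343 the longest was 15.1 kb (52191259 to 52206404), again with Hoxa5 whole. In Hoxb the longest stretch over genes was 20.01 kb in WT GSK343 (chromosome 11, 96318379 to 96338388) and 25.4 kb in mutant GSK343 (96315533 to 96340946), and both lay over Hoxb3 and Hoxb4. Under DMSO the longest stretch without a peak in WT cells lay in the same parts: 6.70 kb in Hoxa3 and 6.54 kb over Hoxb3 and Hoxb4. Over Hoxc and Hoxd the longest stretch under GSK343 was 2.77 and 3.67 kb in WT cells and 2.65 and 3.30 kb in mutant cells.

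**Figure D3:**
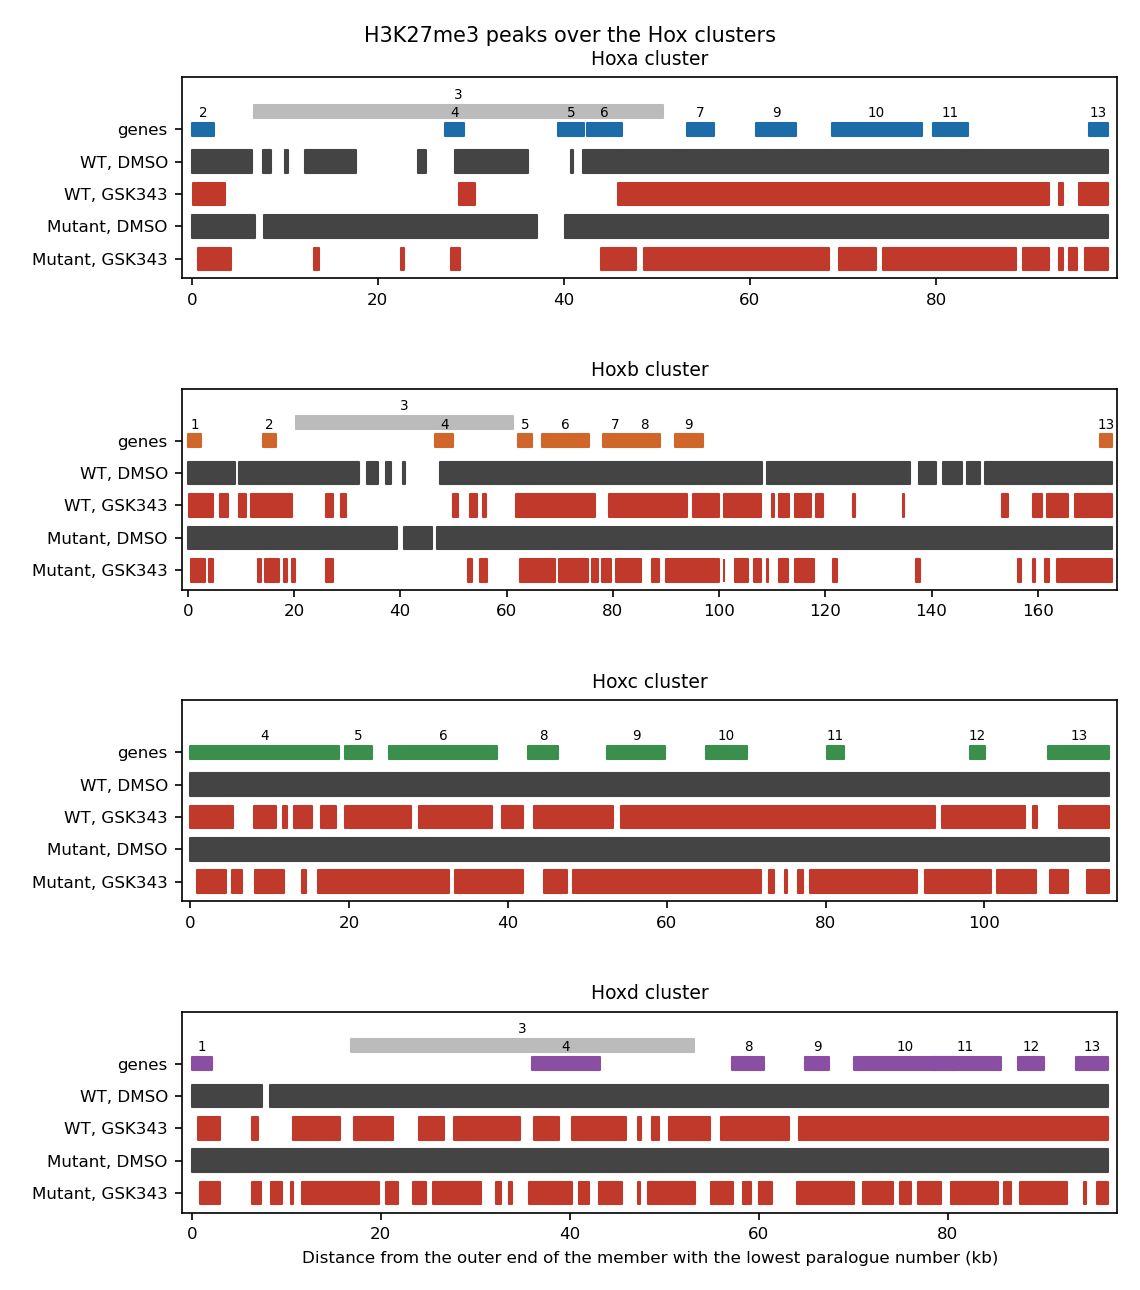
Peaks (bars) of the 4 lists over each cluster, DMSO in dark grey and GSK343 in red, by distance in kb from the outer end of the lowest-numbered member; gene bodies above carry their paralogue numbers, and those over 30 kb are light grey. The GSK343 peaks are sparse around genes 3 to 5 in Hoxa and 3 and 4 in Hoxb, while Hoxc and Hoxd are broken by short gaps.

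Peaks under DMSO joined many Hox genes, and under GSK343 they were shorter. In WT DMSO 18 peaks touched the 38 genes. Single peaks of 184 kb over Hoxc, 123 kb over Hoxa5 to Hoxa13 and 113 kb over Hoxd3 to Hoxd13 were the widest 3 of 39495. The Hoxa peak among them also covered the start of Hoxa3. In mutant DMSO 8 peaks touched the 38 genes, the widest of them 259 kb long over Hoxc. In WT GSK343 37 peaks touched the genes. The widest 3 of the list's 11903 peaks were of 46.3 kb from Hoxa6 to Hoxa11, 40.1 kb from Hoxd9 to Hoxd13 and 39.5 kb from Hoxc9 to Hoxc11. The Hoxa peak among them also covered the start of Hoxa3, and only 10.5% of Hoxa6. In mutant GSK343 56 peaks touched the genes, of at most 23.6 kb, over Hoxc9 and Hoxc10. The widest remaining peaks of WT cells thus lay over genes numbered 6 to 13 of 3 clusters and over the start of Hoxa3. By the authors' fold over background, the Hoxa peak of mutant DMSO (5.28) ranked 53 of 49803 and the Hoxd peak of WT DMSO (4.28) ranked 349 of 39495.

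Most of the partly covered genes were broken by short gaps, and a few by long ones. With peaks less than 3 kb apart joined, 32 Hox genes were covered in full in WT GSK343 and 30 in mutant GSK343, against 18 and 12 as deposited. Below 50% stood Hoxa3, Hoxa4, Hoxa5, Hoxb3 and Hoxb4 in both genotypes, with Hoxa6 in WT cells alone. The same 5 genes were below 50% in both GSK343 lists as deposited, and with stricter thresholds on q-value, p-value or fold, with equal numbers of peaks, with peaks of at least 1 kb and with 1 kb added to each gene end. By promoter window, which Hoxa4 and Hoxb3 lack, only Hoxa5 of these was below 50% in WT GSK343. In mutant GSK343 Hoxa5 and Hoxb4 were. Hoxa4, Hoxa5 and Hoxb4 lie inside Hoxa3 and Hoxb3, so the 5 are not separate values. Hoxc8, Hoxd8 and Hoxd13, below 50% in mutant GSK343 as deposited, were covered in full once peaks less than 3 kb apart were joined.

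The spacers between neighbouring genes showed how far the gaps reached outside gene bodies. The 74.7 kb between Hoxb9 and Hoxb13, the longest spacer, was covered over 92.5%, 38.6%, 100% and 31.5%. Between Hoxb1 and Hoxb2 the shares were 93.1%, 63.4%, 100% and 17.7%. By contrast, the spacers between Hoxa7 and Hoxa9 and between Hoxc9 and Hoxc10 were covered in full in all 4 lists. In Hoxa the genes were less covered than the spacers under GSK343, at 45.5% against 80.04% in WT and 44.0% against 79.1% in mutant cells, whereas in Hoxd they were more covered, at 83.2% against 65.9% and 68.9% against 59.6%.

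Under DMSO the genotypes had equal shares at 33 of 38 genes, each of them covered over 100% in both and so at the limit of the measure. The other 5 were higher in mutant cells: Hoxa5 at 73.1% against 11.01% in WT, Hoxa4 at 100% against 49.6%, Hoxa3 at 91.1% against 55.1%, Hoxb3 at 94.4% against 71.2% and Hoxb4 at 88.8% against 76.8%. Under GSK343 20 were higher in WT, 9 in mutant cells and 9 were equal. The whole lists differed in the same directions. Their peaks covered 84.3 Mb in WT and 134 Mb in mutant DMSO, and 21.1 and 17.0 Mb under GSK343. At least 25 points lay between the genotypes for 3 genes under DMSO (Hoxa3, Hoxa4 and Hoxa5) and for 6 under GSK343: Hoxb8, Hoxc8, Hoxd8, Hoxd10 and Hoxd13, higher in WT, and Hoxa6, higher in the mutant. At least 50 points lay between them for 2 genes under each treatment. With peaks less than 3 kb apart joined, the first 5 of the 6 were covered in full in both genotypes under GSK343. Over the 38 genes WT and mutant GSK343 shares had a Pearson r of 0.802 and a rho of 0.594. The lists also differed in the p-values reached at a like enrichment: for peaks with a fold of 2.9 to 3.1 the median −log10 p-value was 5.45 in WT DMSO and 6.12 in mutant DMSO, and 4.65 and 4.99 under GSK343. The part of these differences between lists in the values of the Hox genes was not tested.

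**Figure D4:**
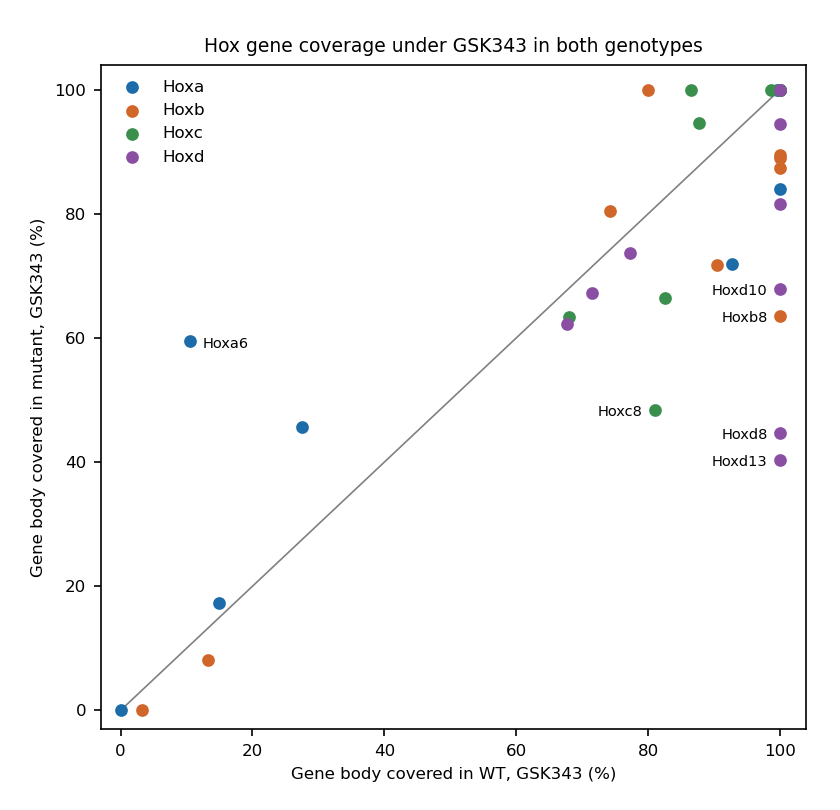
Covered share of each Hox gene body under GSK343 in WT (horizontal) and mutant cells (vertical), in percent, 1 point per gene, coloured by cluster; the line marks equal shares and genes at least 25 points apart are named. Hoxd13 sits at 100% and 40.3%, Hoxa6 at 10.5% and 59.4%.

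The clusters also carry microRNA genes, whose products silence Hox messenger RNAs among other targets. Their mature 5p sequences are printed to show which of these genes share a seed and where in the clusters they sit. Capitals mark the seed, bases 2 to 8, and the sequences are RefSeq's.
miR-10a-5p (Mir10a, chr11:96317186-96317208, plus strand): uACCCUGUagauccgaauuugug
miR-10b-5p (Mir10b, chr2:74726074-74726096, plus strand): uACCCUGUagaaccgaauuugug
miR-196a-5p (Mir196a-1, chr11:96265187-96265208, plus strand, and Mir196a-2, chr15:102973365-102973386, plus strand): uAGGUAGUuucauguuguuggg
miR-196b-5p (Mir196b, chr6:52230129-52230150, minus strand): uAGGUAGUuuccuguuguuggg

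All 6 microRNA genes listed (these and Mir615, in Hoxc5) were covered in full under DMSO in both genotypes. The genes with the miR-196 seed lie between Hox9 and the next gene of higher number, and each was covered over 100% in both GSK343 lists, as was Mir615. Mir10a, inside Hoxb3 and just before Hoxb4, was at 0% in both GSK343 lists. Mir10b, inside Hoxd4, was at 0% in WT GSK343 and 100% in mutant GSK343. A microRNA gene is about 0.1 kb long, so its share is mostly all or none. Of the long non-coding RNA genes, Hotair in Hoxc had 100% in WT and 75.1% in mutant GSK343, Hottip beside Hoxa13 had 82.2% and 59.7%, and Hotairm1 had 74.3% and 81.9%.

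Among genes that act with or before Hox genes, the DNA-binding cofactors of the TALE class (Pbx2, Pbx3, Pbx4, Meis1, Meis2, Meis3, Pknox1 and Pknox2) were touched more often than coding genes in general but over small parts of their bodies, which reach 256 kb. A peak touched 5 of these 8 under DMSO and 4 under GSK343 in WT cells, and 5 in each mutant list, against the 31.8%, 21.4%, 34.6% and 20.3% of all coding genes, and their median covered share was 5.56%, 0.139%, 9.22% and 1.40%. The highest was Meis3, at 35.9%, 0%, 63.4% and 4.05%. Sister and upstream homeobox genes (Cdx1, Cdx2, Cdx4, Gsx1, Gsx2, Pdx1, Evx1 and Evx2) were more like the Hox genes. Of these 8, 6 were covered by at least 50% under DMSO and 6 under GSK343 in WT cells, and 8 and 6 in mutant cells. The shares of all coding genes at that level were 6.67%, 2.76%, 9.37% and 2.47%. Under DMSO Evx1 and Evx2 lay in the same peaks as Hoxa and Hoxd genes, so they are not separate values there.

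The nearest coding genes beyond the clusters lie at unlike distances and had unlike shares. On the high-numbered side, Evx1, 52.6 kb from Hoxa13, was covered in full in all 4 lists, and Evx2, 6.70 kb from Hoxd13, over 100%, 78.1%, 100% and 90.8%. Ttll6, 28.1 kb from Hoxb13, had 85.1%, 14.5%, 94.6% and 6.03%. On the low-numbered side the genes are farther away: Skap1, 96.3 kb from Hoxb1, had 28.5%, 1.71%, 53.6% and 1.13%, Skap2, 149.9 kb from Hoxa2, had at most 4.12%, and Mtx2, 60.7 kb from Hoxd1, had none. Beside Hoxc the order was the other way: Calcoco1, 199.0 kb away on the high side, had no peak in any list, and Smug1, 116.4 kb away on the low side, had 2.24% in WT DMSO, 16.5% in mutant DMSO and none under GSK343.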

How the data were processed

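H3K27me3 ChIP-seq of mouse splenic B cells comprised 16 samples in 8 groups of 2, ChIP or input by genotype by treatment. The analysis used 4 deposited lists of broad peaks, matched to genotype and treatment by the prefix of their peak names. A folder name within the peak names speaks of pooled duplicates, and each list counts as 1 value per group. The mutant prefixes end in 1, and whether these lists rest on replicate 1 alone was not settled. Per the submitters' processing notes, Bowtie2 2.4.2, SAMtools 1.12, MACS2 2.2.7.1, bedtools 2.29.2 and deepTools 3.5.1 were used with build mm10; which settings applied is not given in the sources used here. The linear fold over background of each peak is a ratio deposited by the authors, as are the −log10 of its p-value and q-value. Read depth is unknown, so peak extent depends on depth and on the authors' threshold to an unknown degree.

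Overlapping peaks were joined, and the covered share of each RefSeq gene body (GRCm38.p6, the build of mm10) was computed, with an overlap of at least 1 bp counting as touched. The share reaches its limit at 100%, so a weaker mark within a covered gene is not seen. The members, the gene lists and the 50% level were chosen with earlier results of these data known. All 38 members are named, besides the fixed lists of cofactors, sister homeobox genes, RNA genes, markers and nearest neighbours. One further Hox gene and some genes of the fixed lists are not reported here. Promoter windows were printed for the 2 lowest and 2 highest members under GSK343, with a tie making the latter 3. Homeodomain sequences were not used here. The scripts ran in Python 3.11.15 with pandas 2.3.3, scipy 1.17.1, numpy 2.4.6 and, for plots, matplotlib 3.10.9. The interval code was tested on simulated data, where 200 of 200 covered lengths were recovered, and equalled bedtools 2.31.1 in 152 of 152 values. Overlapping promoter windows on opposite strands were reverse complements in 1912 of 1912 cases.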

Additional observations from a re-analysis of the deposited data

How the results depend on the processing

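Of 12 alternative settings, 9 changed the peaks or the bases counted and 3 the level of 50%. Over 20 results (counts of Hox genes past the level, median differences and rank correlations) 205 values stayed, 22 moved and 1 reversed. Counts were taken to stay within 1.5 times, median differences within 5 points and correlations within 0.1. Values stayed for all 20 results with a q-value of at most 0.01, a −log10 p-value of at least 5, a fold of at least 3, equal numbers of peaks (10847 from each list) and peaks of at least 1 kb. Promoter windows exist for 22 genes only, which lowers the counts: 22 in each DMSO list, with 5 in groups 5 to 8 and 9 in groups 9 to 13, 20, 4 and 8 in WT GSK343, and 18, 3 and 8 in mutant GSK343. There the rank correlation with paralogue number reversed to −0.173 in WT and moved to 0.0799 in mutant GSK343, where few windows are short of 100%, and the mutant median difference was 0. Joining peaks closer than 3 kb gave a WT correlation of 0.368 and a mutant median difference of 0. Gene bodies with 1 kb added at each end gave median differences of −12.8 in WT and −26.98 in mutant cells, and bases not shared with another Hox gene, which leave 33 genes, gave −11.05 in mutant cells. In groups 1 to 4, a level of 75% left 4 genes in WT GSK343 and 1 in mutant GSK343, and any overlap gave 11 in WT GSK343. The cause of a shift was not tested beyond the smaller number of genes.

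No paired analysis was possible because the peak lists hold no values for single replicates, which also prevented fits without 1 replicate. Depth limits the gaps: a stretch without a peak is one where the mark was not detected at the authors' threshold.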
